A study of Rattus norvegicus with 6 samples.

Results

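The Fc receptors and the signalling molecules of the immunoreceptor tyrosine-based activation motif (ITAM) were followed in inflamed rat spinal cord, with 8 genes in all: Fcgr1, Fcgr3, Fcgr2b, Fcer1g, Tyrobp, Lyn, Syk and Ptpn6. A probe was taken for a gene when the array's gene name was the symbol, and otherwise when the array's description named the gene, which was needed for Fcer1g alone. This gave 13 of the 41012 probes on the array, and 8 of the 35378 gene names. The rats were Lewis rats aged 7 to 8 weeks, and RNA came from formalin-fixed, paraffin-embedded spinal cord sections and was amplified before hybridization. Rats of the ENMO group (experimental neuromyelitis optica) received T cells specific for myelin basic protein on day 0 and NMO-IgG, an antibody preparation from the human disease, on day 4. EAEcoI rats received the same T cells and a commercial human IgG as control IgG, and EAEcoP rats received the T cells and PBS. The other groups had no T cells: NMO-IgG only, control IgG only, and a healthy control without either. Tissue was taken 24 h after the antibody or PBS. The T cells were transferred ready made, so the disease is passive, and EAE (experimental autoimmune encephalomyelitis) here stands for EAEcoI and EAEcoP together.

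Fc receptors bind the constant part of antibodies. Activating receptors signal through an adaptor that carries an ITAM, whose tyrosines are phosphorylated by kinases of the Src family and then bind the kinase Syk, while the inhibitory receptor carries an inhibitory motif that recruits phosphatases. In the spinal cord these molecules are known chiefly from microglia and from infiltrating macrophages and granulocytes, where they drive the uptake of antibody-coated material and antibody-dependent killing.

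Each group was measured on 1 one-colour array that carried a pool of 5 rats, or of 3 rats for the healthy control. No value therefore has an error between animals, and the number of arrays limits the precision. Values are normalized signal intensities (NSI), the scanner software's background-corrected intensities after quantile normalization over the 6 arrays, and they compare 1 probe between arrays, not probes with each other. The error at hand is that between spots, from 263 probes with 10 spots each. Where these were well above background, the SD between spots was 0.50 on the log2 scale. The spread used below is 1 SD of a ratio of 2 arrays, and a ratio lay within it up to 1.63-fold. Noise between spots alone can carry a ratio beyond it, so it is a mark and not a test. Each probe of the 8 genes had 1 spot per array, none was marked as an outlier or saturated, and the software's own error of the spots well above background was at most 22.1%. Slide 1 of the 2 slides carried ENMO, EAEcoP and the control IgG without T cells, and slide 2 carried the other 3 groups. Between 35.3% and 59.96% of the spots were well above background. Markers of cord tissue were present, with 10 of 10 oligodendrocyte, 8 of 10 astrocyte and 8 of 9 measured neuron genes well above background on 1 array or more, and so were 10 of 14 measured T-cell genes. The T-cell receptor chain gene Cd247 stood at 41.9, 6.81 and 69.4 on the arrays with T cells and at 2.43, 15.6 and 2.70 on those without. In whole tissue, fewer cells of a type and less RNA per cell cannot be told apart.

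Of the 13 probes, 8 were well above background on all 6 arrays, 3 on some arrays and 2 on none. The probes well above background throughout were 1 each for Fcgr1, Fcer1g, Lyn and Ptpn6 and 2 each for Fcgr3 and Tyrobp. Syk was the only gene without any signal well above background.

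**Figure D1:**
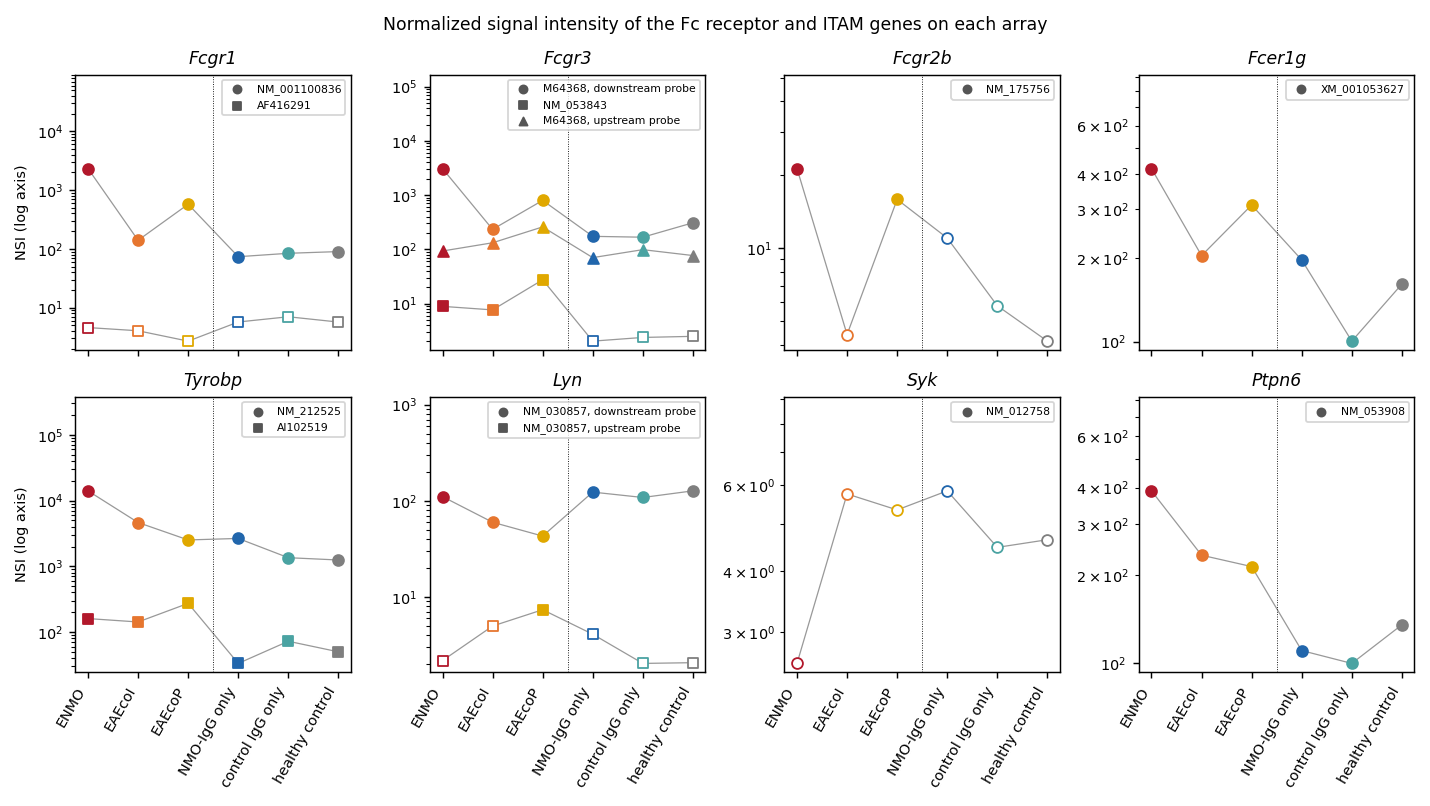
NSI of every probe of the 8 genes (vertical, log axis) on each of the 6 arrays (horizontal). Filled symbols are well above background, open symbols are not, symbol shapes are the probes of a gene, and the dotted line divides the arrays with T cells (left) from those without (right). Fcgr1, the downstream Fcgr3 probe, Fcgr2b, Fcer1g, Ptpn6 and the NM_212525 probe of Tyrobp peaked on the ENMO array.

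Fcgr1 encodes the high-affinity IgG receptor, an activating receptor that binds single IgG molecules. The probes for it are shown because only the first gave a signal. Both lie on the minus strand of chromosome 2, the first at chr2:191095045-191095104 and the second at chr2:191099039-191099098, 3994 bases upstream along that strand, in coordinates of the array design, whose genome build the files do not name. All probe sequences are given 5′ to 3′ in lower case, in full or as the first 30 bases.
Fcgr1 NM_001100836, first 30 bases: gcacaaacttcccaaacttgaccctgaaac
Fcgr1 AF416291, whole probe: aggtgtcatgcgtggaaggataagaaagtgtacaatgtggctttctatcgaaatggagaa
The NM_001100836 probe read 2321 on ENMO, 140 on EAEcoI and 575 on EAEcoP, against 73.6 with NMO-IgG only, 84.1 with control IgG only and 90.0 in the healthy control. All 3 arrays with T cells lay above all 3 without, and the arrays without T cells lay within the spread of each other. The mean NSI of all T was 12.3-fold that of all non-T, and ENMO stood 6.50-fold above the mean of the EAE arrays. This ratio rested much on which EAE array was used, with 16.6-fold against EAEcoI and 4.04-fold against EAEcoP. Without ENMO, the arrays with T cells were still 4.33-fold above those without. The AF416291 probe read between 2.70 and 7.01 and was below background on every array, so it gave no ratio.

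Fcgr3 encodes the low-affinity activating IgG receptor, which binds immune complexes and is known as the receptor of antibody-dependent killing. Its probes gave different orders of ENMO and the EAE arrays, and the 3 are printed for that reason. All lie on the minus strand of chromosome 13. The first is at chr13:86920647-86920706, the second at chr13:86921308-86923192, where its 60 bases are spread over 1885 bases of genome and so cross an intron, and the third at chr13:86905963-86906022.
Fcgr3 M64368, downstream probe, first 30 bases: tggtggcacagtttttatccaggacacatg
Fcgr3 M64368, upstream probe, whole: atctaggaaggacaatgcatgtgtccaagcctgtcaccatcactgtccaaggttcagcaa
Fcgr3 NM_053843, whole probe: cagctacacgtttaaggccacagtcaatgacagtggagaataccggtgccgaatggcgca
The transcript NM_053843 carries the symbol Fcgr2a in RefSeq's gene table for the assembly GRCr8, and the genes of this family are close paralogs that lie side by side, so which receptor each probe read is uncertain.

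The downstream M64368 probe read 3080 on ENMO, 233 on EAEcoI and 798 on EAEcoP, and 174, 167 and 308 in the order NMO-IgG only, control IgG and healthy control. ENMO and EAEcoP lay above every array without T cells, while EAEcoI lay below the healthy control. All T stood 6.33-fold above all non-T, and 2.38-fold without ENMO. ENMO was 13.2-fold above EAEcoI and 3.86-fold above EAEcoP.

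The upstream probe of the same transcript, 661 bases away, gave another order. It read 93.1 on ENMO, 132 on EAEcoI and 259 on EAEcoP, and 70.3, 98.6 and 76.9 in the order NMO-IgG only, control IgG and healthy control. ENMO was the lowest of the arrays with T cells and lay below control IgG only. Its ratio of ENMO over EAE was 0.476, where the downstream probe gave 5.97. The ratio against EAEcoI, 0.705, was within the spread between spots and that against EAEcoP, 0.359, was beyond it. The NM_053843 probe was well above background on the arrays with T cells alone, with 8.89 on ENMO, 7.65 on EAEcoI and 27.4 on EAEcoP, and read 2.03, 2.38 and 2.49 on the others. Measured against the lowest signal well above background on those arrays, all T was at least 1.13-fold higher. It too was higher on EAEcoP than on ENMO.

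Fcgr2b encodes the inhibitory low-affinity IgG receptor, which counters the activating receptors. Its probe read 21.2 on ENMO, 4.42 on EAEcoI and 15.8 on EAEcoP, and 10.998, 5.80 and 4.15 in the order NMO-IgG only, control IgG and healthy control. Only ENMO and EAEcoP were well above background. ENMO was 1.34-fold above EAEcoP, within the spread, and at least 3.40-fold above EAEcoI, and all T was at least 1.04-fold above all non-T.

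Fcer1g encodes the common gamma chain, the ITAM adaptor of Fcgr1, Fcgr3 and the IgE receptor. The array names its probe LOC498279 and describes it as similar to the gamma subunit of the high-affinity IgE receptor. The probe lies on the minus strand at chr13:87119567-87119626 and is shown to identify the target, since the gene symbol does not.
Fcer1g XM_001053627, first 30 bases: ggctctaaatcaatgtccccatatccacca
It read 420 on ENMO, 204 on EAEcoI and 311 on EAEcoP, against 197, 100 and 161 in the order NMO-IgG only, control IgG and healthy control. The arrays with T cells did not overlap those without, but EAEcoI and NMO-IgG only lay next to each other. With scaling to the 75th percentile they did overlap, at 190 on EAEcoI and 206 with NMO-IgG only. All T was 2.04-fold above all non-T and ENMO was 1.63-fold above EAE. With the local trend across each array removed, the first ratio was 1.17. The adaptor thus had a narrower range over the 6 arrays, 4.19-fold from lowest to highest, than the 31.5-fold of the Fcgr1 probe or the 18.4-fold of the downstream Fcgr3 probe.

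Tyrobp encodes DAP12, the ITAM adaptor of receptors such as Trem2 that are known from microglia. Its 2 probes lie 8 bases apart on chromosome 1 but are placed on opposite strands by the array design, and both are printed because their patterns differed. The NM_212525 probe is at chr1:85369110-85369169 on the plus strand, and the AI102519 probe, made from the 3′ end of an expressed sequence tag, is at chr1:85369042-85369101 on the minus strand.
Tyrobp NM_212525, first 30 bases: caacaaaccctccctgggatcaggactccc
Tyrobp AI102519, first 30 bases: tctggaatgagtggatccgggcatcaggtt
The NM_212525 probe read 14042 on ENMO, 4633 on EAEcoI and 2516 on EAEcoP, and 2653, 1352 and 1247 in the order NMO-IgG only, control IgG and healthy control. ENMO stood apart from all others, and NMO-IgG only lay just above EAEcoP. All T was 4.03-fold above all non-T and 2.04-fold without ENMO. ENMO was 3.03-fold above EAEcoI and 5.58-fold above EAEcoP.

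The AI102519 probe read 160 on ENMO, 142 on EAEcoI and 273 on EAEcoP, and 33.3, 72.4 and 50.02 in the order NMO-IgG only, control IgG and healthy control. Here the arrays with T cells lay above all others, by 3.70-fold in the mean, and ENMO was not above EAE, with a ratio of 0.772 that was within the spread. The probe carries the symbol Tyrobp, but its strand in the array design is the opposite one and was not checked on a genome here, so its assignment to the Tyrobp transcript is uncertain.

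Lyn encodes a Src family kinase that phosphorylates both activating and inhibitory motifs. Its probes lie on the plus strand of chromosome 5, at chr5:17053643-17053702 and, 903 bases upstream, at chr5:17052740-17052799. The downstream probe read 111 on ENMO, 59.9 on EAEcoI and 43.0 on EAEcoP, against 123, 108 and 127 in the order NMO-IgG only, control IgG and healthy control. Of the genes with a ratio, Lyn was the only one lower with T cells, with a T over non-T ratio of 0.596, and the ENMO array lay among the arrays without T cells. Among the 11645 probes well above background on all 6 arrays, 19.7% had a lower ratio and the median was 0.862. ENMO was 1.85-fold above EAEcoI and 2.57-fold above EAEcoP, the latter higher than for 73.6% of those probes. The upstream probe was well above background on EAEcoP alone, at 7.39.

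Syk encodes the kinase that docks on phosphorylated ITAMs. Its single probe, at chr17:18441114-18441173 on the minus strand, read between 2.58 and 5.84 and was below background on all 6 arrays, so its level could not be compared.

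Ptpn6 encodes SHP-1, the phosphatase recruited by inhibitory motifs. Its probe lies at chr4:160843754-160843813 on the minus strand. It read 390 on ENMO, 235 on EAEcoI and 215 on EAEcoP, and 110, 99.8 and 135 in the order NMO-IgG only, control IgG and healthy control. The arrays with T cells lay above all without, by 2.43-fold in the mean. ENMO was 1.66-fold above EAEcoI and 1.82-fold above EAEcoP, just beyond the spread. The ratio to EAEcoP exceeded that of 57.2% of the 11645 probes well above background on all 6 arrays, whose median was 1.56.

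The first comparison asked how these genes differed with the transfer of encephalitogenic T cells. In the limma package's moderated test of all T against all non-T, none of the 11 member probes with such a signal on 1 array or more passed a Benjamini-Hochberg adjusted p of 0.05, and nor did any of the 27497 probes tested (0.0%). At an unadjusted p under 0.05 there were 3151 probes, or 11.5%, and 2340 were higher with T cells, or 8.51%. Among the 8 member probes well above background throughout, 5 were below this threshold and higher with T cells, namely Fcgr1, the downstream Fcgr3 probe, both probes labelled Tyrobp and Ptpn6, where 3.99% of the 11645 probes of this kind were. The NM_053843 probe is not counted, since it had a signal well above background with T cells alone and so passed the filter only through the arrays where it was higher. The lowest adjusted p of the 8 in limma was 0.256, for the AI102519 probe, at a log2 difference of 1.90 with an SE of 0.55. For Fcgr1 the limma log2 difference was 2.80 with an SE of 0.89 and an adjusted p of 0.285. A single probe compared over 3 against 3 arrays by an exact two-sided permutation test cannot go below p = 0.1.

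All 3 arrays with T cells lay above all 3 without for 4 of the 8 member probes well above background throughout, namely Fcgr1, Fcer1g, the AI102519 probe and Ptpn6. Among the 11645 probes well above background throughout, the share was 8.11%. The median ratio of all T over all non-T reached 2.995 over the 8 member probes and 0.862 over the 11645.

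The layout allowed the comparison at equal antibody: ENMO over NMO-IgG only, EAEcoI over control IgG only, and EAEcoP over healthy control. All 3 ratios were above 1 for 7 of the 8 member probes, all but Lyn, against 13.4% of the 11645. They were all beyond the spread for 4 member probes, which were Fcgr1, Fcer1g and both probes labelled Tyrobp, against 2.96%, but for 1 with scaling to the 75th percentile and for 2 with normexp or with the local trend removed. The AI102519 probe was in each of these counts. Fcgr1 was 31.5-fold higher with T cells under NMO-IgG, 1.67-fold under control IgG, barely past the spread, and 6.39-fold without antibody. The downstream Fcgr3 probe followed with 17.7-fold, 1.39-fold and 2.59-fold. Fcer1g was even over the layout, at 2.13-fold, 2.03-fold and 1.93-fold, but its ratios were 1.30, 1.39 and 0.844 with the local trend removed. Tyrobp NM_212525 was 5.29-fold, 3.43-fold and 2.02-fold higher, and Ptpn6 3.53-fold, 2.35-fold and 1.58-fold. The Lyn ratios were 0.898, 0.553 and 0.339, where the medians over the 11645 probes were 1.02, 0.917 and 0.653.

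**Figure D2:**
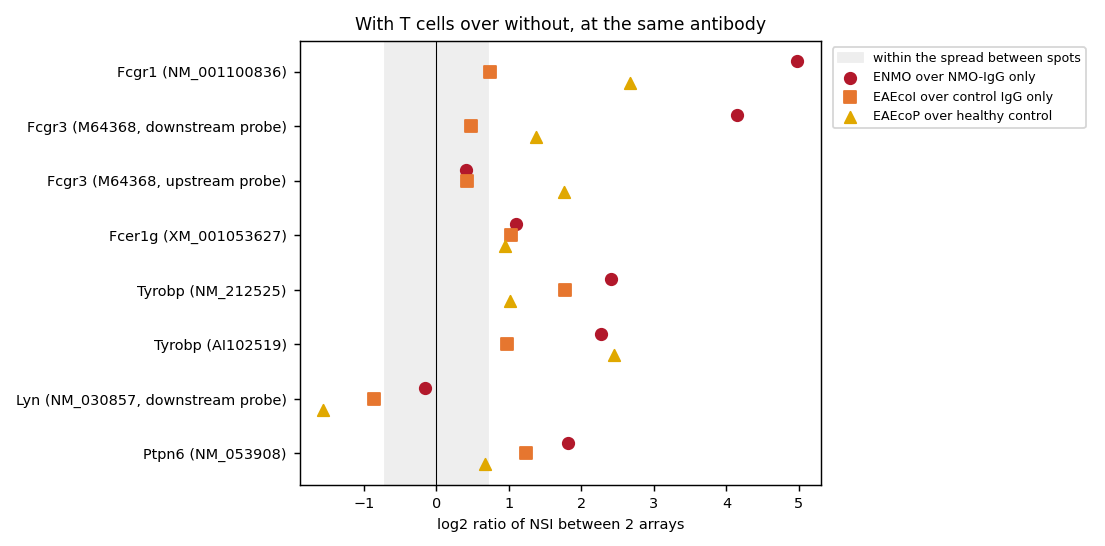
Log2 ratio of NSI between an array with T cells and the array without them at the same antibody (horizontal) for the 8 probes well above background on all 6 arrays (vertical). The grey band is the spread between spots for a ratio of 2 arrays, up to 1.63-fold. Lyn alone lies left of 0 in all 3 ratios, and the widest gaps between ratios are those of Fcgr1 and the downstream Fcgr3 probe.

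Of the matched ratios beyond the spread, those that fell on the other side of 1 under another processing were all of EAEcoP over healthy control. For Tyrobp NM_212525 it was 2.02, but 0.839 with scaling to the 75th percentile and 0.863 with the local trend removed, and for Fcer1g it was 1.93 and 0.844 with the local trend removed. Within slide 1, ENMO over control IgG only gave 27.6 for Fcgr1, 18.4 for the downstream Fcgr3 probe, 10.4 for Tyrobp NM_212525, 4.19 for Fcer1g and 3.91 for Ptpn6. EAEcoP over control IgG only on that slide gave 6.83, 4.77, 1.86, 3.09 and 2.15 in the same order. Within slide 2, where EAEcoI was the array with T cells, its ratio to the mean of NMO-IgG only and healthy control was 1.71, 0.968, 2.38, 1.14 and 1.91, so that the downstream Fcgr3 probe and Fcer1g were within the spread there. Slide 2 held no array with both T cells and NMO-IgG, and the part of the slide in these values was not tested.

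The second comparison asked how the genes differed with NMO-IgG in rats that had the T cells. Of the 8 member probes, 5 were highest on ENMO of all 6 arrays: Fcgr1, the downstream Fcgr3 probe, Fcer1g, Tyrobp NM_212525 and Ptpn6. Over the 11645 probes this share was 12.4%. The study's list of genes higher in ENMO than in every other group came from these same data. It held Fcgr1, the M64368 target, Fcer1g and Ptpn6, and Tyrobp was among the upregulated genes checked by quantitative PCR. The members were chosen with earlier results known, so this count and those that follow are a description and no independent support. ENMO lay above both EAE arrays for 6 of 8 member probes, against 44.8%, and beyond the spread for 5, against 15.3%: Fcgr1, the downstream Fcgr3 probe, Tyrobp NM_212525, Lyn and Ptpn6. The last count of higher probes was 3 of 8 with the normexp background correction or with none, where Lyn and Ptpn6 lay within the spread of 1 or both EAE arrays. ENMO lay below both for 1 of 8 member probes, the upstream Fcgr3 probe, against 19.3%. The median ratio of ENMO over EAE was 1.93 over the member probes and 1.21 over all. Against EAEcoP alone these medians were 2.16 and 1.56, and 48.0% of all 11645 probes were higher on ENMO beyond the spread.

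In limma, ENMO against EAE gave no probe with an adjusted p under 0.05 among 27466 tested (0.0%), and 1583 at an unadjusted p under 0.05, or 5.76%. Fitted on the 3 arrays with T cells alone, the same contrast passed for 8 probes and for no member. The share that was higher in ENMO at that threshold was 1.93%, and 3 of the 11 member probes were among them: Fcgr1, the downstream Fcgr3 probe and Tyrobp NM_212525. The lowest adjusted p of a member in limma was 0.817, for Fcgr1, with a log2 difference of 3.03 and an SE of 0.95. For its error, the lone array of ENMO was given the spread of the rest.

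**Figure D3:**
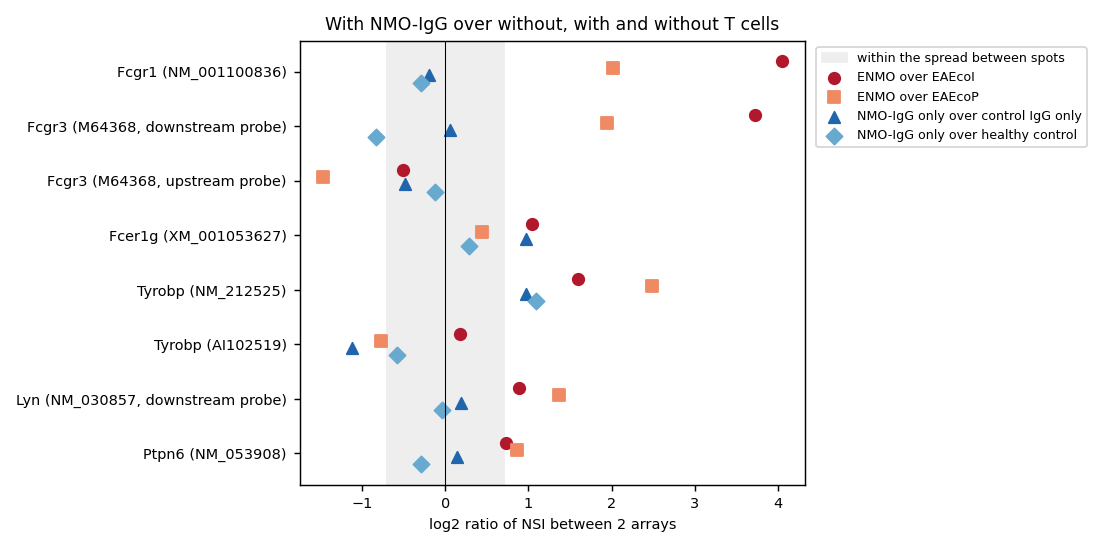
Log2 ratio of NSI between an array with NMO-IgG and an array with control IgG, PBS or nothing (horizontal) for the 8 probes well above background on all 6 arrays (vertical), with T cells (reds) and without (blues). The grey band is the spread between spots, up to 1.63-fold. For Fcgr1 and the downstream Fcgr3 probe the ratios with T cells lie far right of those without.

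Without T cells, NMO-IgG only exceeded control IgG only beyond the spread for 2 of 8 member probes, against 14.4% of all, and both were adaptors: Fcer1g at 1.96-fold and Tyrobp NM_212525 at 1.96-fold. Of these the Tyrobp ratio was within the spread, between 1.22 and 1.45, under 75th percentile scaling, normexp, no background correction or removal of the local trend. It stayed beyond the spread with outlier spots kept and from the deposited values per target. The AI102519 probe stood at 0.460, lower beyond the spread. Fcer1g and Tyrobp NM_212525 were also the 2 of 8 for which NMO-IgG only lay above both other arrays without T cells, against 33.6%. Against the healthy control, Tyrobp was 2.13-fold higher and Fcer1g 1.22-fold, but the Tyrobp ratio was 1.03 with scaling to the 75th percentile and 0.969 with the local trend removed. With NMO-IgG alone, Fcgr1 stood at 0.875 of control IgG only and 0.818 of healthy control, both within the spread between spots, but at 1.82 of control IgG only with the local trend removed. The downstream Fcgr3 probe stood at 1.04 of control IgG only, within that spread, and at 0.563 of healthy control, lower by more than it. The ratio of ENMO over EAEcoI divided by that of NMO-IgG only over control IgG only was 18.9 for Fcgr1 and 12.7 for the downstream Fcgr3 probe, and between 0.989 and 2.45 for the other 6 member probes. Against the arrays without antibody, with ENMO over EAEcoP divided by NMO-IgG only over healthy control, it was smaller, at 4.94 for Fcgr1 and 6.86 for the downstream Fcgr3 probe, and between 0.393 and 2.65 for the others. For Fcgr1 the value against control IgG was 6.46 with the local trend removed, where Ptpn6 stood at 5.13. Against no antibody, Tyrobp NM_212525 gave 8.98 with scaling to the 75th percentile, where Fcgr1 gave 6.49 and the downstream Fcgr3 probe 10.4. With the local trend removed Tyrobp NM_212525 gave 8.18, above the 3.37 of Fcgr1 and the 6.32 of the downstream Fcgr3 probe. The gap to the other member probes thus depended on the processing. In the value against control IgG, ENMO and control IgG only lay on slide 1, and EAEcoI and NMO-IgG only on slide 2. A difference between slides would build up in that value and cannot be told apart there. Against no antibody, each of the 2 ratios lay within 1 slide. Each such value rests on 4 single arrays and was not tested.

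An additive limma fit of T cells and NMO-IgG over all 6 arrays gave 0 of 27497 probes with an adjusted p under 0.05 for NMO-IgG (0.0%) and 774 at an unadjusted p under 0.05, or 2.81%. Tyrobp NM_212525 was the only one of the 11 member probes among the latter, with a log2 difference of 1.54, an SE of 0.67 and a limma adjusted p of 0.9997.

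The EAE arrays differed from each other in the receptors. EAEcoI lay below EAEcoP beyond the spread for 4 of 8 member probes, against 18.6% of all: Fcgr1 at 0.244, both M64368 probes of Fcgr3 at 0.292 and 0.510, and the AI102519 probe at 0.521. Tyrobp NM_212525 was the reverse at 1.84, but at 1.011 with normexp, and within the spread without background correction too. Of the 11645 probes, 41.9% were likewise higher on EAEcoI beyond the spread, and their median ratio over EAEcoP was 1.39 for all. The EAE arrays lay on different slides, and the control IgG and the slide cannot be told apart. In limma, EAE against all non-T passed for 213 of 27497 probes, or 0.775%, and for none of the 11 member probes. At an unadjusted p under 0.05 and higher in EAE were 2 of the 8 probes well above background throughout, Fcgr1 and the AI102519 probe, against 5.26% of the 11645. The NM_053843 probe is again left out of this count, and its ratio of EAE over all non-T was at least 1.33.

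The other genes of the pathway were taken from lists written for their roles. None of them passed an adjusted p of 0.05 in any of the 4 limma fits. Of 15 other Fc receptor genes, 8 had a probe, and 4 of these passed the background mark on some array. Fcar, the IgA receptor, had a ratio of all T over all non-T of 0.577, and Fcer2, the low-affinity IgE receptor, stood at 0.632.

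Of 26 receptors and adaptors that signal through ITAMs or pair with them, 17 had a probe and 14 were well above background somewhere. In all T against all non-T, 2 of these were at an unadjusted p under 0.05 in limma, both higher, against 8.51% of all probes tested. The T-cell receptor chains Cd247 and Cd3d had ratios of 5.70 and 1.94, and Osmr one of 1.81. Osmr was on the list although the oncostatin M receptor it encodes signals through JAK kinases and not through an ITAM. Trem2, the microglial receptor that uses Tyrobp, read 47.6, 44.2 and 109 on ENMO, EAEcoI and EAEcoP and 14.7, 79.7 and 59.8 in the order NMO-IgG only, control IgG and healthy control, so its groups overlapped. It was named for its known pairing, after its values were seen.

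Among 13 further kinases of the Src, Syk and Tec families, 12 had a probe and 9 were well above background somewhere. Zap70, the relative of Syk in T cells, and Fgr, a myeloid Src family kinase, had ratios of all T over all non-T of 2.21 and 1.93. Each had all 3 arrays with T cells above those without, against 8.11% of the 11645 probes well above background throughout. Both were named for the size of their ratios. Neither was higher in ENMO than in EAE, with ratios of 0.592 and 0.798.

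Of 30 downstream transducers, 24 were well above background somewhere, and 2 were higher at an unadjusted p under 0.05 in limma for all T against all non-T, a share close to the 8.51% of all probes tested. The adaptors Gab2 and Lcp2 had ratios of 1.92 and 1.71. The ratio of 0.0923 for Vav2 came from the healthy control, which read 4146 where the other 5 arrays read between 62.4 and 176. Of 32 genes for inhibitory receptors and negative regulators, 18 were well above background somewhere, with 1 higher and 1 lower at an unadjusted p under 0.05 in limma, against 11.5% of all probes tested in either direction. Dok3, an inhibitory adaptor, had a ratio of 3.89 that rested on 178 on EAEcoP, and Ptpn11, the relative of Ptpn6, one of 0.291 that rested on 211 on control IgG only. Pecam1, an endothelial and leukocyte adhesion molecule with inhibitory motifs, was lower on all 3 arrays with T cells, between 27.0 and 32.6 against 72.2 to 118. Its ratio was 0.327, and 10.4% of the 11645 probes well above background throughout were likewise lower without overlap.

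**Figure D4:**
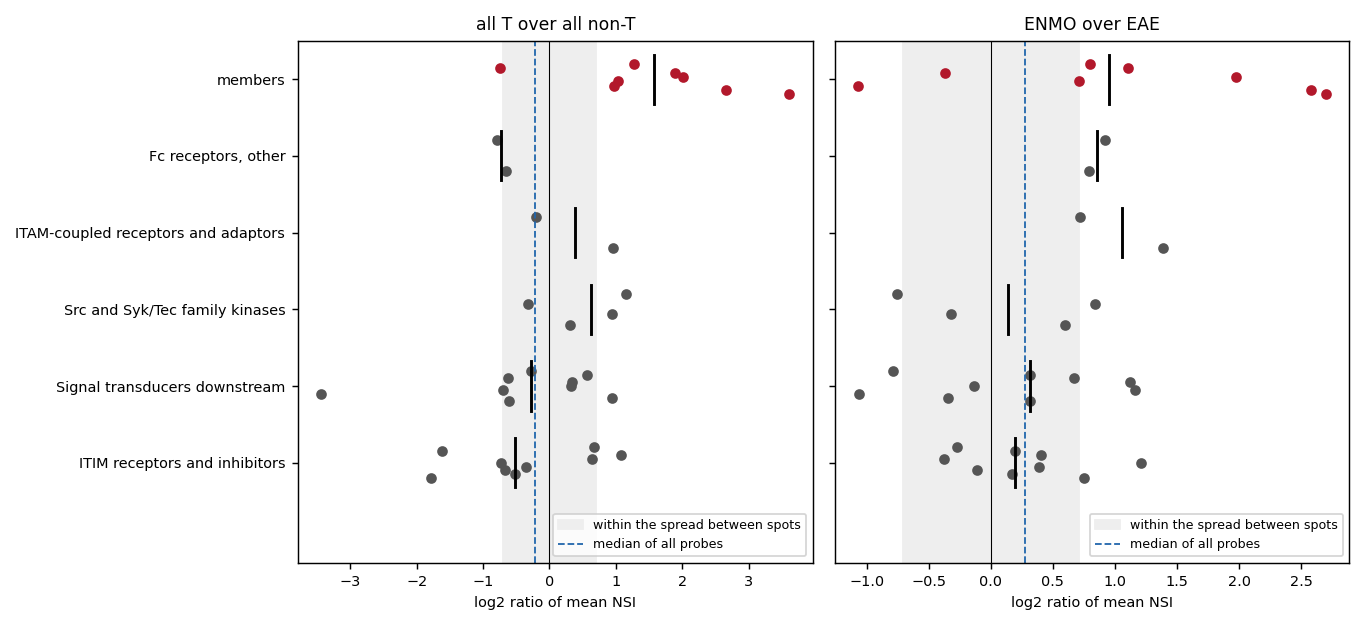
Log2 ratio of mean NSI (horizontal) of all T over all non-T (left) and of ENMO over EAE (right) for the 8 member probes and for the other pathway genes by role, each by its brightest probe and only where well above background on all 6 arrays. Short vertical lines are the median of a row, the dashed line is the median of all 11645 probes and the grey band is the spread between spots. The member median lies at 2.995-fold on the left, right of the medians of all 5 lists. On the right it lies at 1.93-fold, below the 2.07-fold median of the ITAM-coupled receptors and adaptors. That list and the list of other Fc receptors hold only 2 genes each here.

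Markers of cells that carry these receptors did not show 1 common order. The summed NSI of the 17 microglia and macrophage genes was 3052, 2971 and 2447 on ENMO, EAEcoI and EAEcoP and 2250, 1990 and 2894 in the order NMO-IgG only, control IgG and healthy control. Of these genes, 15 were above the background mark on some array. In limma for all T against all non-T, 2 of the 15 were higher at an unadjusted p under 0.05, against 8.51% of all probes tested. The phagocyte genes Mrc1 and Msr1 were below background on all 6 arrays, and Itgam, which encodes the integrin chain CD11b, was above it on 1. The 16 neutrophil genes summed to 1294, 2324 and 1964 with T cells and to 1217, 966 and 1231 without, so that ENMO was the lowest of the arrays with T cells. The T-cell genes summed to 3985, 2254 and 2070 against 1652, 1697 and 1629, and most of the ENMO sum was Cd3d at 2348. The 7 measured B-cell and plasma-cell genes summed to 416, 240 and 180 with T cells and to 276, 265 and 342 without. The microglia and macrophage, T-cell and B-cell sums were each highest on ENMO, and the neutrophil, NK-cell and mast cell sums were not. The microglia and macrophage sum on ENMO, 3052, was close to 2971 on EAEcoI and 2894 in the healthy control. The Fcgr1 probe was 16.6-fold higher on ENMO than on EAEcoI. The 8 NK-cell genes summed to 316, 552 and 634 with T cells and to 450, 134 and 326 without. The 9 measured mast cell genes summed to 1614, 9405 and 6024 with T cells and to 683, 1395 and 620 without, so ENMO was the lowest of the arrays with T cells. Most of the EAE sums was the tryptase gene Tpsab1, at 4756 on EAEcoI and 5405 on EAEcoP, and the histidine decarboxylase gene Hdc, at 4111 and 365, while Fcer1a, the IgE-binding receptor chain, was below background on all 6 arrays. The sum of the 10 astrocyte genes went the other way, at 464, 330 and 313 with T cells and 2378, 1727 and 2724 without. The difference came mostly from the connexin gene Gjb6, which read between 29.9 and 129 with T cells and between 1410 and 2362 without. Only 3 of the 10 genes were well above background throughout, and 1 of these was lower with T cells beyond the spread. The median T over non-T ratio for these 3 genes, 0.849, lay near the 0.862 for the 11645 probes. A sum of NSI gives most weight to its brightest probes. What part the cell types of these lists had in the values of the 8 genes was not tested.

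Tyrobp NM_212525 and the Fcgr1 probe were compared with 6471 named genes well above background throughout, by Pearson's r of log2 NSI over the 6 arrays, as a description. The genes most like Tyrobp were Emp3 (0.983), Cd3d (0.970), Opalin (0.960), RT1-Aw2 (0.957) and Tmco4 (0.951). Those most like Fcgr1 were Ankh (0.982), Grik3 (0.980), the downstream Fcgr3 probe (0.979), Wt1 (0.979) and Eif4ebp1 (0.974). Among the members, Fcgr1 was near the downstream Fcgr3 probe but apart from the upstream one (0.382), and Tyrobp NM_212525 had 0.879 with Ptpn6, 0.809 with Fcer1g, 0.798 with Fcgr1 and 0.480 with the AI102519 probe. All these points share the same 6 arrays, of which ENMO is the extreme one for both probes.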

How the data were processed

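For each of the 6 arrays the authors deposited the scanner software's spot table (Feature Extraction 10.1.1.1, per the file headers) with intensity corrected for background and for trends over the array, and a table with 1 intensity per target. Neither is normalized between arrays. From the 45018 spots, 43379 were no controls. Spots marked as outliers were dropped, repeat spots were averaged as log2 values, and the 41012 probes were quantile-normalized, as the study's methods state, with limma 3.58.1 in R 4.3.3 and Python 3.11.15. A probe counted as well above background where its spot, or no fewer of its repeat spots than not, carried the software's mark. Folds are ratios of mean NSI. "At least" marks a fold against the lowest signal well above background, taken as means of log2 values, and none is given where both sides were below background. The limma fits used log2 NSI of probes that passed this mark on 1 array or more, with a threshold of 0.05. They were tested on simulated data.

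Every probe of the 8 genes is named. From each pathway list the text names up to 3 genes, by their brightest probe, with the ratio of all T over all non-T farthest beyond the spread among those well above background on at least 4 arrays, and the 5 genes most like Tyrobp and Fcgr1. The members and lists were chosen with earlier results of these data known. Fcer2, Trem2, Mrc1, Msr1 and Itgam were named after their values were seen. In RefSeq's gene table for GRCr8, 15576 probes matched a symbol. Each group is 1 array, so p-values measure only the spread between these arrays. Alternatives were scaling to the 75th percentile, normexp (offset 50) or no background correction, outlier spots kept, the local trend (a window of 5 rows and columns) removed, filters on dim probes, the deposited values per target, the mean over the probes of a gene, the mean of log2 values, a block for slide or antibody, and leaving out each array, which for the counts of members was chosen after seeing the data, as were the alternatives for the counts and ratios across NMO-IgG without T cells and for matched ratios beyond the spread.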

Additional observations from a re-analysis of the deposited data

Results flagged for a closer look

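The Fcgr1 probe NM_001100836 was singled out because its ratios of NMO-IgG over the other arrays were above 1 with T cells and below 1 without, although the latter did not exceed the spread between spots. ENMO lay above both EAEcoI and EAEcoP, 16.6-fold and 4.04-fold, while NMO-IgG only lay below both control IgG only and healthy control, at ratios of 0.875 and 0.818 respectively. The first ratio over the third, against control IgG, was 18.9, or 6.46 with the local trend removed. The second over the fourth, against no antibody, was 4.94. A difference between the 2 slides would build up in the former and cannot be told apart there. In the latter each ratio lay within 1 slide. The difference between the ratios with and without T cells was not tested, since each value is 1 array. With the local trend removed, NMO-IgG only over control IgG only was 1.82, so that the ratio without T cells crossed 1.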

How the results depend on the processing

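ENMO against EAE gave 0 adjusted limma calls under every alternative fitted with arrays without T cells, and 8 on the 3 arrays with T cells alone. All T against all non-T gave 0 under every alternative but the omission of an array, which gave 0 to 213, with 213 without ENMO and 3 without EAEcoI. With the antibody, which numbers the matched arrays, as a replicate block this fit gave 0 calls, and the labels do not pair the arrays otherwise. EAE against all non-T gave 213 calls, but 77 with scaling to the 75th percentile, 5 with normexp, 0 without background correction, 9 over probes well above background on all 6 arrays, 80 from the deposited values per target and 327 with the slide as a block. Leaving out arrays gave 0 to 808 calls, with 808 without EAEcoI and 0 without EAEcoP, NMO-IgG only, control IgG only or healthy control. For NMO-IgG over both T-cell backgrounds, 0 became 97 with the slide as a block and 8 within the arrays with T cells, the contrast of ENMO against EAE given above. Leaving out arrays gave 0 to 226, the latter without control IgG only. The only adjusted call of a member under any of these was that of the Fcgr3 probe NM_053843 without EAEcoI in EAE against all non-T (limma adjusted p of 0.0484), which set EAEcoP alone against arrays below background, so that the filter fixed its direction. Member probes above both EAE arrays beyond the spread were 5 of 8, 3 with normexp, 3 without background correction, 3 of 7 targets from the deposited values, and 5 to 6 without an EAE array. Probes higher in all 3 matched ratios were 7 of 8, and 5 to 7 under the other processing. Those beyond the spread in all 3 were 4, but 1 with scaling to the 75th percentile, 2 with normexp and 2 with the local trend removed. Probes above in NMO-IgG only over control IgG only beyond the spread were 2, but 1 with scaling to the 75th percentile and 1 with normexp. Probes highest on ENMO were 5 of 8, or 6 without EAEcoP and 4 of 6 genes over the mean of their probes. Of 170 recomputed ratios of all T over all non-T and ENMO over EAE, 161 moved by less than the spread, 9 by more, and 0 of those beyond the spread turned. Of those within it, 1 fell on the other side of 1, AI102519 in ENMO over EAE, at 1.13 without EAEcoP. Of 42 ratios of 2 arrays beyond the spread, under 5 alternatives each, 4 of the 210 values turned, all named in the report. The cause was not tested. Signal near background leaves Syk and the AF416291 probe of Fcgr1 without a level, the upstream Lyn probe with 1 array, and Fcgr2b and the NM_053843 probe with bounds against the arrays without T cells.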
